A study of Brassica napus with 12 samples.

Results

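The genes described here are copies of *P23-1*, *ROF2* and *HSA32*, which are known from Arabidopsis as heat-induced genes of the HSP90 co-chaperone network or of long-term thermotolerance, in root tips of oilseed rape (*Brassica napus*). The 5 genes were chosen by their identifiers, with earlier results of these data known, among the 101038 genes of the count tables: BnaA09g30420D and BnaC05g17990D (*P23-1*, on chromosomes A09 and C05), BnaA06g30120D and BnaC07g26590D (*ROF2*, A06 and C07) and BnaC07g36650D (*HSA32*, C07). For the comparison of A and C copies, the *HSA32* copy on A03 (BnaA03g58470D), which is not one of the 5, was added. The RNA came from root tips, 1 cm long in the sample labels, of the spring varieties Drakkar and Duplo. The paper's methods give a shorter length, ending at the first root hair cell. After 3 days of germination, seedlings stood in pouches of 6 for 7 days at a constant 21 °C or 29 °C with 16 h of light. Each combination of variety and temperature had 3 biological replicates, which gave 12 libraries, and each replicate combined seedlings from several pouches. The label of a group gives only the variety and the temperature, with no further genotype or agent.

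P23-1 is a small acidic co-chaperone that binds HSP90 and stabilizes its ATP-bound state during client folding, and in Arabidopsis p23 proteins contribute to root growth. ROF2 (FKBP65) is an FK506-binding peptidyl-prolyl isomerase whose tetratricopeptide repeats can bind HSP90. In Arabidopsis it is induced by heat and modulates the transcription factor HSFA2. HSA32 is a heat-stress-associated protein that acts together with the disaggregase HSP101 to prolong the memory of an earlier heat treatment. *B. napus* is an allotetraploid, so each of these genes can be present as a homoeologous pair, with a copy from the A subgenome and another from the C subgenome.

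The sequences at hand for these genes were the quantitative PCR primers that the study designed on the A09 copy of *P23-1* and the C07 copy of *HSA32*. They are shown because they tie each name to the copy whose levels follow, and are written 5′ to 3′ with no part in capitals.
*P23-1* (BnaA09g30420D) forward: ttgcagtcgacatcctacgg
*P23-1* (BnaA09g30420D) reverse: acatcttcagcgtctggcaa
*HSA32* (BnaC07g36650D) forward: acgttacggtccaaatgtga
*HSA32* (BnaC07g36650D) reverse: gtaggaggaactgagaacggac
These primers are 20 to 22 bases long with a GC content between 45.0% and 54.5%. Whether they also amplify the other copy of each pair was not tested.

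Between 26554987 and 39934384 reads per library were counted on genes. Levels are given as CPM, read counts scaled to the library total with TMM factors over all 12 libraries, and are compared only within a gene, since CPM does not account for gene length. A gene was called changed when edgeR's quasi-likelihood test across all genes gave an adjusted p-value under 0.05 with a log2 fold change beyond 1 in either direction. The A and C copies of *B. napus* genes are usually similar in sequence, and how reads that fit both were counted is not given, so the division of reads between the copies may be uncertain. In root tip RNA, fewer expressing cells and less RNA per cell cannot be told apart. The tissue label could not be checked against root markers with the gene names used here. A library was taken to stand apart in a gene when it lay at least 8-fold above or below both others of its group. By this measure, Duplo 21 °C replicate 2 was above its group in 93 genes, all 5 genes described here among them. Drakkar 29 °C replicate 2 was below its group in 77 genes, 3 of the 5 among them. Duplo 29 °C replicate 3 was above its group in 956 genes, none of the 5 among them. Values without the first 2 of these libraries, below called the libraries that stood apart, are given beside the results. These 2 were picked out for their levels of the 5 genes, so p-values, calls and overlaps without them are a description. Counts of calls without Duplo 29 °C replicate 3 are given for the Duplo temperatures, the interaction and the varieties at 29 °C.

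At 21 °C the 5 genes had 35 reads or fewer in every library of both varieties except Duplo replicate 2, and all were detected in every library at 29 °C. The A09 copy of *P23-1* had 9, 1 and 2 reads in the Drakkar libraries at 21 °C (replicates 1 to 3) and 3184, 205 and 2824 reads at 29 °C. In CPM, these were 0.267, 0.0253 and 0.0609 at 21 °C and 98.6, 6.85 and 99.1 at 29 °C. The groups did not overlap, and replicate 2 at 29 °C held 6.93% of the mean level of the other 29 °C replicates. In Duplo the same gene had 0.155, 13.5 and 0 CPM at 21 °C, compared with 1.43, 3.85 and 7.04 CPM at 29 °C. Here the groups overlapped, because Duplo 21 °C replicate 2, with 393 reads, lay above all 3 libraries at 29 °C.

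The C05 copy of *P23-1* (BnaC05g17990D) differed from its partner in Duplo. In Drakkar it had 0.0594, 0.0253 and 0.244 CPM at 21 °C, compared with 62.3, 15.1 and 69.6 CPM at 29 °C, again without overlap and with replicate 2 lowest at 29 °C. In Duplo it had 0.0931, 3.43 and 0.0340 CPM at 21 °C, compared with 9.99, 11.9 and 13.3 CPM at 29 °C. All Duplo libraries at 29 °C thus lay above all those at 21 °C, including replicate 2, whose level of 3.43 CPM was 0.294 times the 29 °C mean. For the A09 copy, the same library had 3.29 times the 29 °C mean.

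**Figure D1:**
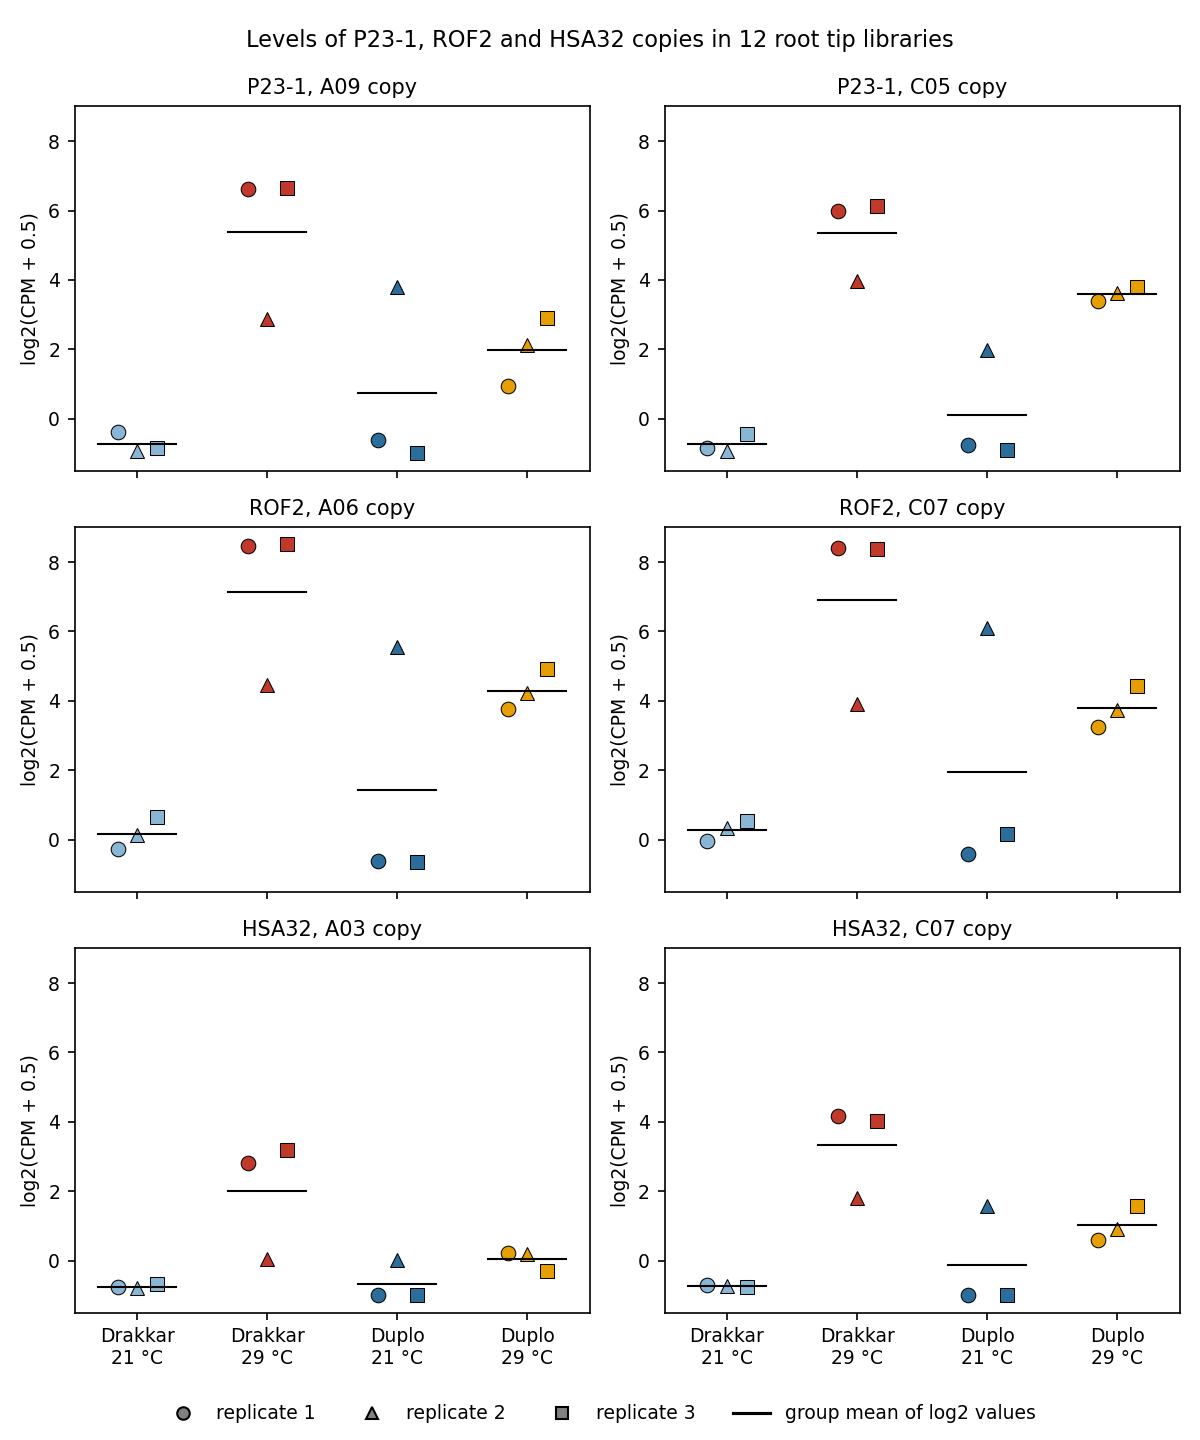
Levels of the 2 copies each of *P23-1*, *ROF2* and *HSA32* in the 12 libraries, as log2(CPM + 0.5) on the vertical axis, with 3 replicates per group as points and the mean of the log2 values as a line. Drakkar 29 °C replicate 2 lies below the other replicates of its group and Duplo 21 °C replicate 2 above those of its own in all 6 panels, and only the C05 copy of *P23-1* has no overlap between the Duplo temperatures among the 5 genes described.

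*ROF2* had the highest read counts of the 3 loci. Its A06 copy (BnaA06g30120D) had 0.327, 0.606 and 1.07 CPM in Drakkar at 21 °C and 353, 21.3 and 365 CPM at 29 °C. In reads, this was 11, 24 and 35 against 11391, 638 and 10403. The temperatures did not overlap, and replicate 2 at 29 °C reached 5.94% of the mean of the other 29 °C replicates. In Duplo, the A06 copy had 0.155, 46.9 and 0.136 CPM at 21 °C, compared with 13.05, 18.2 and 29.6 CPM at 29 °C. Replicate 2 at 21 °C, with 1364 reads, exceeded every Duplo library at 29 °C, while the other 21 °C libraries had 5 and 4 reads.

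The C07 copy of *ROF2* (BnaC07g26590D) followed the A06 copy closely, and their log2(CPM + 0.5) values had a Pearson's r of 0.99 over the 12 libraries. It had 0.475, 0.758 and 0.945 CPM in Drakkar at 21 °C and 338, 14.7 and 335 CPM at 29 °C. Replicate 2 at 29 °C reached 4.36% of the mean of the other 29 °C replicates, the lowest such share among the 5 genes. In Duplo it had 0.248, 68.3 and 0.612 CPM at 21 °C, compared with 8.97, 12.9 and 21.1 CPM at 29 °C. The level in Duplo 21 °C replicate 2 was 4.76 times the Duplo mean at 29 °C.

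*HSA32* had the fewest reads. The C07 copy (BnaC07g36650D) had 4, 4 and 3 reads in Drakkar at 21 °C and 560, 90 and 446 reads at 29 °C, or 0.119, 0.101 and 0.0914 CPM against 17.3, 3.01 and 15.6 CPM. These groups did not overlap. In Duplo it had 0, 73 and 0 reads at 21 °C and 32, 37 and 70 reads at 29 °C, or 0, 2.51 and 0 CPM against 1.02, 1.38 and 2.46 CPM. Duplo 21 °C replicate 2 was therefore level with the highest Duplo library at 29 °C within counting error. The A03 copy (BnaA03g58470D) had 3, 3 and 4 reads in Drakkar at 21 °C and 212, 16 and 245 reads at 29 °C. In Duplo it had 0, 15 and 0 reads at 21 °C and 21, 17 and 9 reads at 29 °C, so that replicate 3 at 29 °C lay below replicate 2 at 21 °C.

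The order of the mean levels was not the same for all genes. For every one of the 5 genes the Drakkar 29 °C mean was highest and the Drakkar 21 °C mean lowest. For the C05 copy of *P23-1*, the Duplo mean was 11.7 ± 1.64 CPM (SD, n = 3) at 29 °C and 1.19 ± 1.95 CPM at 21 °C. For the A09 copy, the Duplo mean at 29 °C, 4.11 ± 2.81 CPM, did not differ beyond its spread from that at 21 °C, 4.55 ± 7.75 CPM. The same held for both *ROF2* copies, with 20.3 ± 8.45 against 15.7 ± 26.97 CPM for A06 and 14.3 ± 6.21 against 23.1 ± 39.2 CPM for C07. It also held for *HSA32*, with 1.62 ± 0.751 against 0.836 ± 1.45 CPM. Each of these Duplo 21 °C means was carried by replicate 2, since the other replicates had between 0 and 0.612 CPM.

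The temperatures were first compared within Drakkar. All 5 genes rose at 29 °C, against a background of 2.48% of the 52709 genes tested that were called higher. The log2 fold change was 9.16 (SE 1.31, edgeR adjusted p = 0.0193) for *P23-1* A09 and 8.81 (SE 0.86, adjusted p = 0.00890) for *P23-1* C05. For *ROF2* it was 8.51 (SE 1.20, adjusted p = 0.0187) for A06 and 8.28 (SE 1.25, adjusted p = 0.0213) for C07. For *HSA32* C07 it was 6.79 (SE 0.82, adjusted p = 0.0145). Among all log2 fold changes in Drakkar, these ranked 1, 3, 7, 9 and 24 from the top in that order. The paper names *BnP23* and *BnHSA32* in a cluster of genes highly induced in Drakkar, found in these same libraries. It also measured both by quantitative PCR on separately collected replicates, and reports that these assays bore out different patterns in the varieties. Since the 5 genes were chosen with such results known, their ranks and calls in Drakkar are a description. As ratios of summed reads per scaled library size, the levels at 29 °C were 605 times those at 21 °C for *P23-1* A09 (95% counting interval 346 to 1172, exact binomial), 473 times for *P23-1* C05 (264 to 947) and 116 times for *HSA32* (64.8 to 234). For *ROF2* they were 375 times (296 to 481) for A06 and 317 times (254 to 402) for C07. Without Drakkar 29 °C replicate 2, the ratios were 873 and 634 times for *P23-1* A09 and C05, 543 and 463 times for *ROF2* A06 and C07 and 159.5 times for *HSA32*. The intervals overlapped between the copies of each pair with all libraries and cover counting error only. The temperatures did not overlap for any of the 5 genes, which held for 17.9% of all genes tested in the direction of higher levels at 29 °C.

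The Drakkar calls depended on which library was left out. With 1 library left out, the 5 log2 fold changes stayed between 6.42 and 10.53 and all 5 unadjusted p-values stayed under 0.05, but 0 of the genes were called when replicate 1, replicate 2 or replicate 3 at 21 °C was the one omitted. In those fits the adjusted p-values lay between 0.0505 and 0.0910. The count was 2 with 29 °C replicate 1 omitted and 1 with 29 °C replicate 3 omitted. Without the low 29 °C replicate 2, all 5 were called with adjusted p-values between 0.000179 and 0.000476, and the log2 fold changes were 9.72, 9.26, 9.07, 8.85 and 7.26 in the order given above. The genes called over the whole table likewise numbered between 11 and 336 in the fits with fewer calls and 3173 without 29 °C replicate 2, compared with 1707 with all libraries. Unadjusted p-values under 0.05 were found for between 10932 and 18510 genes in the fits with 1 library left out.

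**Figure D2:**
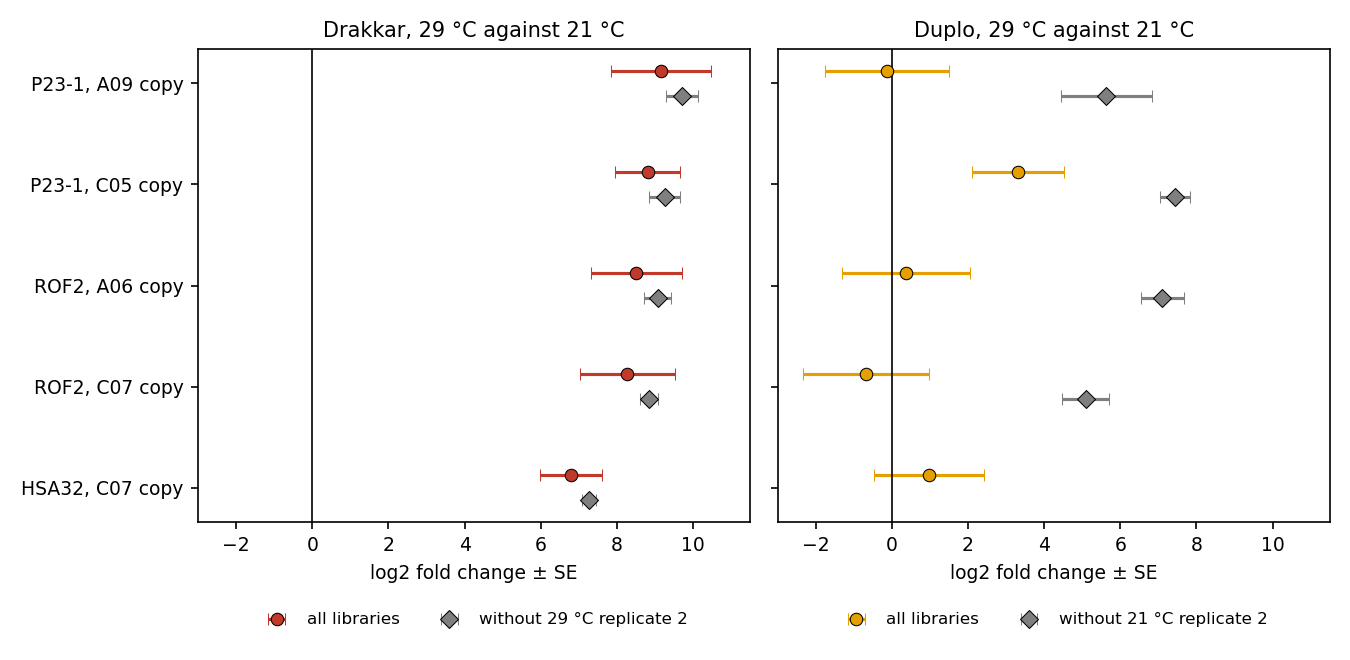
Log2 fold change at 29 °C against 21 °C with its standard error (horizontal axis) for the 5 genes, in Drakkar (left) and Duplo (right), with all 6 libraries of the variety and without the library that stood apart. The Drakkar values lie between 6.79 and 9.72 in both fits, whereas the Duplo values move from between -0.68 and 3.32 to between 5.09 and 7.43 without 21 °C replicate 2. *HSA32* has no point in that Duplo fit, since neither remaining 21 °C library had a read on it.

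In Duplo, 0 of the 5 genes passed the test with edgeR and 0 with DESeq2, and 1 had an unadjusted p-value under 0.05 in each. So did 10272 of the 51673 genes tested with edgeR and 9395 with DESeq2, a share near that of the 5. Of the 51673 genes in the fit, edgeR called only 1, or 0.00194%, whereas DESeq2 called 929, or 1.8%. Without Duplo 29 °C replicate 3, edgeR called 396 of 52440 genes and still 0 of the 5. With any other Duplo library left out, it called 0 genes. In the fit of all 12 libraries, edgeR called 684 genes of 55227 and still 0 of the 5. The log2 fold change was -0.14 (SE 1.63, edgeR adjusted p = 0.970) for *P23-1* A09 and 3.32 (SE 1.22, adjusted p = 0.211) for *P23-1* C05. For *ROF2* it was 0.37 (SE 1.69, adjusted p = 0.917) for A06 and -0.68 (SE 1.66, adjusted p = 0.839) for C07. For *HSA32* it was 0.97 (SE 1.44, adjusted p = 0.726). The standard errors were larger than in Drakkar for each gene. The C05 copy of *P23-1* was the 1 gene of the 5 whose temperatures did not overlap, with 13.2% of all genes tested showing the same.

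Without Duplo 21 °C replicate 2, the values in Duplo were of another size. The log2 fold changes became 5.63 (SE 1.19) and 7.43 (SE 0.39) for the A09 and C05 copies of *P23-1*, and 7.10 (SE 0.57) and 5.09 (SE 0.61) for the A06 and C07 copies of *ROF2*. All 5 genes then had an unadjusted p-value under 0.05, as did 16.1% of the genes tested, and 0 were called, with edgeR adjusted p-values between 0.109 and 0.193. The temperatures then did not overlap for any of the 5, compared with 18.7% of all genes tested. As this library was singled out for its high levels of these genes, the p-values and the lack of overlap are a description. As ratios of summed reads, the levels at 29 °C were 49.6 times those in the other 21 °C replicates for *P23-1* A09 (95% counting interval 21.0 to 154), 179 times for *P23-1* C05 (69.9 to 660), 137 times for *ROF2* A06 (72.2 to 301) and 33.6 times for *ROF2* C07 (22.8 to 51.7). *HSA32* C07 had no read in these libraries and was at least 16.6-fold higher at 29 °C, against a floor of 3 reads per library.

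A fit of the other 10 libraries, without Duplo 21 °C replicate 2 and Drakkar 29 °C replicate 2, was added after these levels had been seen. In that fit, all 5 genes were called higher at 29 °C in Duplo, with edgeR adjusted p-values between 0.00156 and 0.0300, and 0.745% of all genes tested were called higher. In Drakkar, all 5 were called higher too, with adjusted p-values between 9.03e-05 and 0.000853, as were 1212 of the 56278 genes tested. Since the libraries were left out for their levels of these genes, these p-values are a description.

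The difference between the varieties in their temperature response was tested as an interaction over all 12 libraries. The estimates were negative for each gene, with a smaller response in Duplo, at -9.32 (SE 2.48) for *P23-1* A09, -5.50 (SE 1.71) for *P23-1* C05, -8.16 (SE 2.41) for *ROF2* A06, -8.98 (SE 2.44) for *ROF2* C07 and -5.83 (SE 1.86) for *HSA32*. None of the 5 was called by edgeR (adjusted p between 0.499 and 0.561), and 0% of all genes tested were called. With edgeR, 5 of the 5 had an unadjusted p-value under 0.05, as did 7.05% of all genes. DESeq2 called 135 genes, or 0.244% of those in the fit. It gave a p-value for only 2 of the 5, *P23-1* C05 and *HSA32*, which were both under 0.05 before adjustment and not called. Without Duplo 21 °C replicate 2, the estimates were -3.58 (SE 3.20), -1.40 (SE 1.85), -1.45 (SE 2.06), -3.23 (SE 1.67) and 1.87 (SE 2.43) in the same order. In that fit 0 of the 5 had an unadjusted p-value under 0.05, and 137 genes were called over the whole table. The sign for *HSA32* was turned, but neither remaining Duplo 21 °C library had a read on it. Its size and sign in that fit can therefore not be read from the counts. Without Duplo 29 °C replicate 3, the estimates were between -9.95 and -5.58. All 5 then had an unadjusted p-value under 0.05, as did 8552 of 56149 genes tested, and 137 genes were called. None of the 5 was among those called (edgeR adjusted p between 0.127 and 0.181). A difference in response between the varieties was thus not shown for these genes by these counts. The paper's quantitative PCR of *BnP23* and *BnHSA32* on separate replicates was not part of this test.

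At 21 °C, 0 of the 5 genes were called between the varieties by edgeR, where 11.7% of all genes tested were called, while 4 had an unadjusted p-value under 0.05, as did 27.4% of all genes. DESeq2 gave a p-value only for *P23-1* C05 and *HSA32*, of which 1 was under 0.05 before adjustment and 0 were called. The log2 fold changes of Duplo against Drakkar were between 2.94 and 5.26 with edgeR adjusted p-values between 0.0900 and 0.260. Without Duplo 21 °C replicate 2 they were between -4.76 and -0.48, so the direction turned for each gene. The value of -4.76 is that of *HSA32*, on which neither remaining Duplo 21 °C library had a read. Without Duplo 21 °C replicate 1, the C07 copy of *ROF2* was called higher (adjusted p = 0.0395), as were 3099 of 56263 genes tested. In the fit without both libraries that stood apart, *HSA32* C07 was called lower in Duplo (adjusted p = 0.0437), on 0 reads in both Duplo libraries against 11 in the Drakkar libraries. Called lower in that fit were 2991 of 56278 genes tested.

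At 29 °C, the levels of the 5 genes were lower in Duplo than in Drakkar, with log2 fold changes of -4.06 (SE 1.48) and -2.07 (SE 0.89) for the A09 and C05 copies of *P23-1*, -3.60 (SE 1.59) and -4.00 (SE 1.62) for the A06 and C07 copies of *ROF2*, and -2.89 (SE 1.09) for *HSA32*. None passed the test (edgeR adjusted p between 0.0800 and 0.148), although 5 had an unadjusted p-value under 0.05, as did 30.9% of all genes tested. DESeq2 gave a p-value only for *P23-1* C05 and *HSA32*, and 0 of these were under 0.05. Called lower in Duplo were 6.67% of all genes tested. The varieties did not overlap for 2 of the 5, *P23-1* C05 and *HSA32*, and 16% of all genes tested lay entirely lower in Duplo. For the other 3 genes, Drakkar replicate 2 lay below the highest Duplo library. Without Duplo 21 °C replicate 2, a library that is in neither group but enters the estimate of the spread, all 5 were called lower in Duplo (adjusted p between 0.00762 and 0.0144), against 6.74% of all genes. Without Drakkar 29 °C replicate 2, 1 of the 5 was called, *P23-1* A09 (log2 fold change -4.59, adjusted p = 0.0464), and 3870 of 56328 genes tested were called lower. Without Duplo 29 °C replicate 3, 0 of the 5 were called (edgeR adjusted p between 0.0695 and 0.152), while 5295 of 56149 genes tested were called lower. In that fit 3 of the 5 had an unadjusted p-value under 0.05, as did 21627 of all genes tested. The mean of Drakkar replicates 1 and 3 was 24.1 times the Duplo mean for *P23-1* A09 but 5.64 times for *P23-1* C05, and 17.7 and 23.5 times for *ROF2* A06 and C07.

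The A and C copies were compared by the share of the reads of a pair that lay on the A copy, in libraries with at least 10 reads on the pair. Gene length and depth cancel when this share is compared between groups. For *P23-1*, the A09 copy held 61.3%, 31.2% and 58.7% of the reads in the Drakkar libraries at 29 °C (replicates 1 to 3). It held 12.5%, 24.5% and 34.7% in those of Duplo. The C05 copy thus had most of the reads in every Duplo library at 29 °C and in Drakkar replicate 2, whereas the A09 copy had most in the other Drakkar replicates. The means were 50.4 ± 16.6% and 23.9 ± 11.1% (SD, n = 3), a difference of -26.5 percentage points. Drakkar replicate 2 lay within the Duplo range, and the difference did not pass an exact two-sided permutation test (p = 0.20, adjusted p = 0.36 over 6 tests, where 3 against 3 cannot go below p = 0.10). Without Drakkar replicate 2 the difference was -36.1 points, and with each library left out in turn it lay between -36.1 and -20.8 points.

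In Duplo 21 °C replicate 2, the A09 copy held 79.7% of the 493 *P23-1* reads (95% exact binomial interval 75.9% to 83.2%), above every library at 29 °C of either variety. In this library most of the *P23-1* reads were therefore on A09, while at 29 °C in Duplo most were on C05. Since gene length is not accounted for, this compares the libraries and not the levels of the copies. The other libraries at 21 °C had 11 reads or fewer on the pair, too few to place their shares.

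For *ROF2*, the A06 copy held 51.1%, 59.2% and 52.2% of the reads in Drakkar at 29 °C and 59.2%, 58.5% and 58.3% in Duplo. The SD of 0.506 percentage points among the Duplo libraries at 29 °C was lower than that of any other group. At 21 °C the shares were 40.7%, 44.4% and 53.0% in Drakkar, on 27 to 66 reads, and 38.5%, 40.7% and 18.2% in Duplo, on 13, 3353 and 22 reads. In Duplo, all shares at 29 °C lay above all those at 21 °C, with means of 58.7% and 32.4%, a difference of 26.2 percentage points with an exact permutation p of 0.10, the lowest p that this design allows (adjusted p = 0.30). For Duplo 21 °C replicate 2, the exact interval of 39.0% to 42.4% lay below those of the 3 Duplo libraries at 29 °C, which reached down to 55.0%. The intervals of Duplo 21 °C replicates 1 and 3 were wide, at 13.9% to 68.4% and 5.19% to 40.3%. That of replicate 1 covered the Duplo shares at 29 °C. In Drakkar, the mean share was 54.1% at 29 °C and 46.1% at 21 °C, with overlap (exact permutation p = 0.30), a difference of 8.08 points that became 5.54 points without Drakkar 29 °C replicate 2. Between the varieties, the difference of Duplo against Drakkar was -13.6 percentage points at 21 °C (exact p = 0.10, adjusted p = 0.30) and 4.52 points at 29 °C (exact p = 0.30, adjusted p = 0.36). The difference between the Duplo temperatures was 30.35 points, and that between the varieties at 21 °C -17.75 points, without Duplo 21 °C replicate 2. The latter was -6.50 points without Duplo 21 °C replicate 3, a share that rests on 22 reads. Without Drakkar 29 °C replicate 2, the difference at 29 °C was 7.07 points, and with each library left out in turn it lay between 2.98 and 7.07 points.

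**Figure D3:**
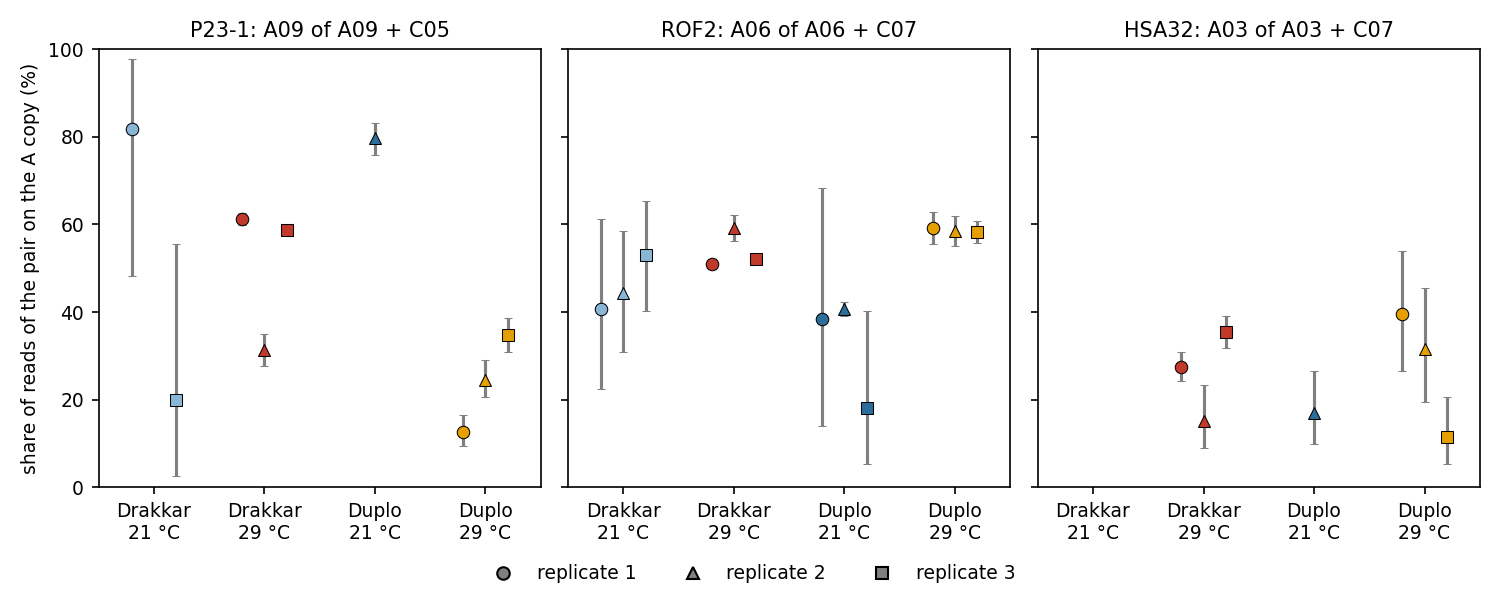
Share of the reads of each pair that lay on the A copy (vertical axis, in percent) in every library with at least 10 reads on the pair, with 95% exact binomial intervals. For *P23-1* the share is 79.7% in Duplo 21 °C replicate 2 and between 12.5% and 34.7% in Duplo at 29 °C, and for *ROF2* it is 40.7% and between 58.3% and 59.2% in the same libraries.

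For *HSA32*, the A03 copy held 27.5%, 15.1% and 35.5% of the reads of the pair in Drakkar at 29 °C and 39.6%, 31.5% and 11.4% in Duplo. The C07 copy had most of the reads in all 6 libraries, and also in Duplo 21 °C replicate 2, where the A03 copy held 17.0% of 88 reads. The means of 26.0 ± 10.3% and 27.5 ± 14.5% differed by 1.495 percentage points (exact permutation p = 0.80), less than the spread between replicates. The sign of this difference turned when Drakkar 29 °C replicate 2, Duplo 29 °C replicate 1 or Duplo 29 °C replicate 2 was left out (-3.96, -4.57 and -0.496 points). The Drakkar libraries at 21 °C had 7 reads on the pair each.

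The other genes of the chaperone network were taken from a list of 31 genes in the supplementary material of the study, which chose them on these samples, so their direction is not independent evidence. Of these, edgeR called 18 higher and 3 lower in Drakkar at 29 °C, compared with 2.48% and 0.757% of all genes tested. The median log2 fold change of the list was 1.85, compared with 0.0063 for all genes. Called higher were 10 of 13 *HSP70* genes, 2 of 4 *HSP90* genes, the *HSP101* gene, the A03 copy of *HSA32*, 2 of 4 co-chaperones of HSP70 and HSP90 and 2 of 8 heat-shock factors. The A03 copy of *HSA32* had a log2 fold change of 5.72 (SE 1.08, edgeR adjusted p = 0.0323). *HSP101* (BnaA07g31420D), the disaggregase that acts with HSA32, had 4.63 (SE 0.71, adjusted p = 0.0226). Both copies of the cytosolic *HSP70* (BnaA03g32320D and BnaC01g38510D) were called, with 4.51 (adjusted p = 0.0246) and 5.33 (adjusted p = 0.0186). Of the copies of *HSP81-2*, a cytosolic HSP90 of the kind that P23-1 and ROF2 bind, C02 (BnaC02g12750D) was called with 2.06 (adjusted p = 0.0450), while A02 (BnaA02g08820D) was not, with 2.23 (adjusted p = 0.0601).

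The 3 genes called lower were the HSP70 co-chaperone gene *Fes1A* (BnaA03g30720D, log2 fold change -1.01) and 2 of 4 copies of *HSFB2B* (BnaC09g52680D at -2.0 and BnaA09g21510D at -1.81). The other *HSFB2B* copies also had lower means at 29 °C in Drakkar but were not called by edgeR. *HSFB2B* encodes a class B factor that represses heat-inducible genes in Arabidopsis. With DESeq2, 26 of the 31 were called higher and 5 lower, as were 1940 and 548 of the 52709 genes tested. The study selected its genes with DESeq2 and the same thresholds on these libraries, so this is not an independent check. Without Drakkar 29 °C replicate 2, 24 were called higher and 4 lower with edgeR, but with any other Drakkar library left out, 0 were called higher. The number called lower was then 3 without 29 °C replicate 3 and 0 in the other fits. The median of the list lay between 1.52 and 2.24 over these fits. With all 12 libraries in 1 fit, 10 were called higher and 3 lower.

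In Duplo, 0 of the 31 were called by edgeR, and 2 had an unadjusted p-value under 0.05. DESeq2 gave a p-value for 23 of the 31, of which 0 were called and 5 were under 0.05 before adjustment. The median was -0.09, against 0.04 for all genes. Without Duplo 21 °C replicate 2, still 0 were called by edgeR, 21 had an unadjusted p-value under 0.05 and the median was 1.08. The library that was high in the 5 genes was also the highest of its group in 28 of the 31, and Drakkar 29 °C replicate 2 was the lowest of its group in 22 of them. The part that these libraries' other properties had in the levels was not tested. *HSP101* in Duplo 21 °C replicate 2 was 4.70 times the Duplo mean at 29 °C, close to the ratio of the C07 copy of *ROF2*, whereas *HSP81-2* was at 2.56 (A02) and 1.70 times (C02). No gene of the list was called for the interaction by edgeR or DESeq2, with 18 at an unadjusted p-value under 0.05 in edgeR and 17 in DESeq2, which gave a p-value for 30 of the 31.

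**Figure D4:**
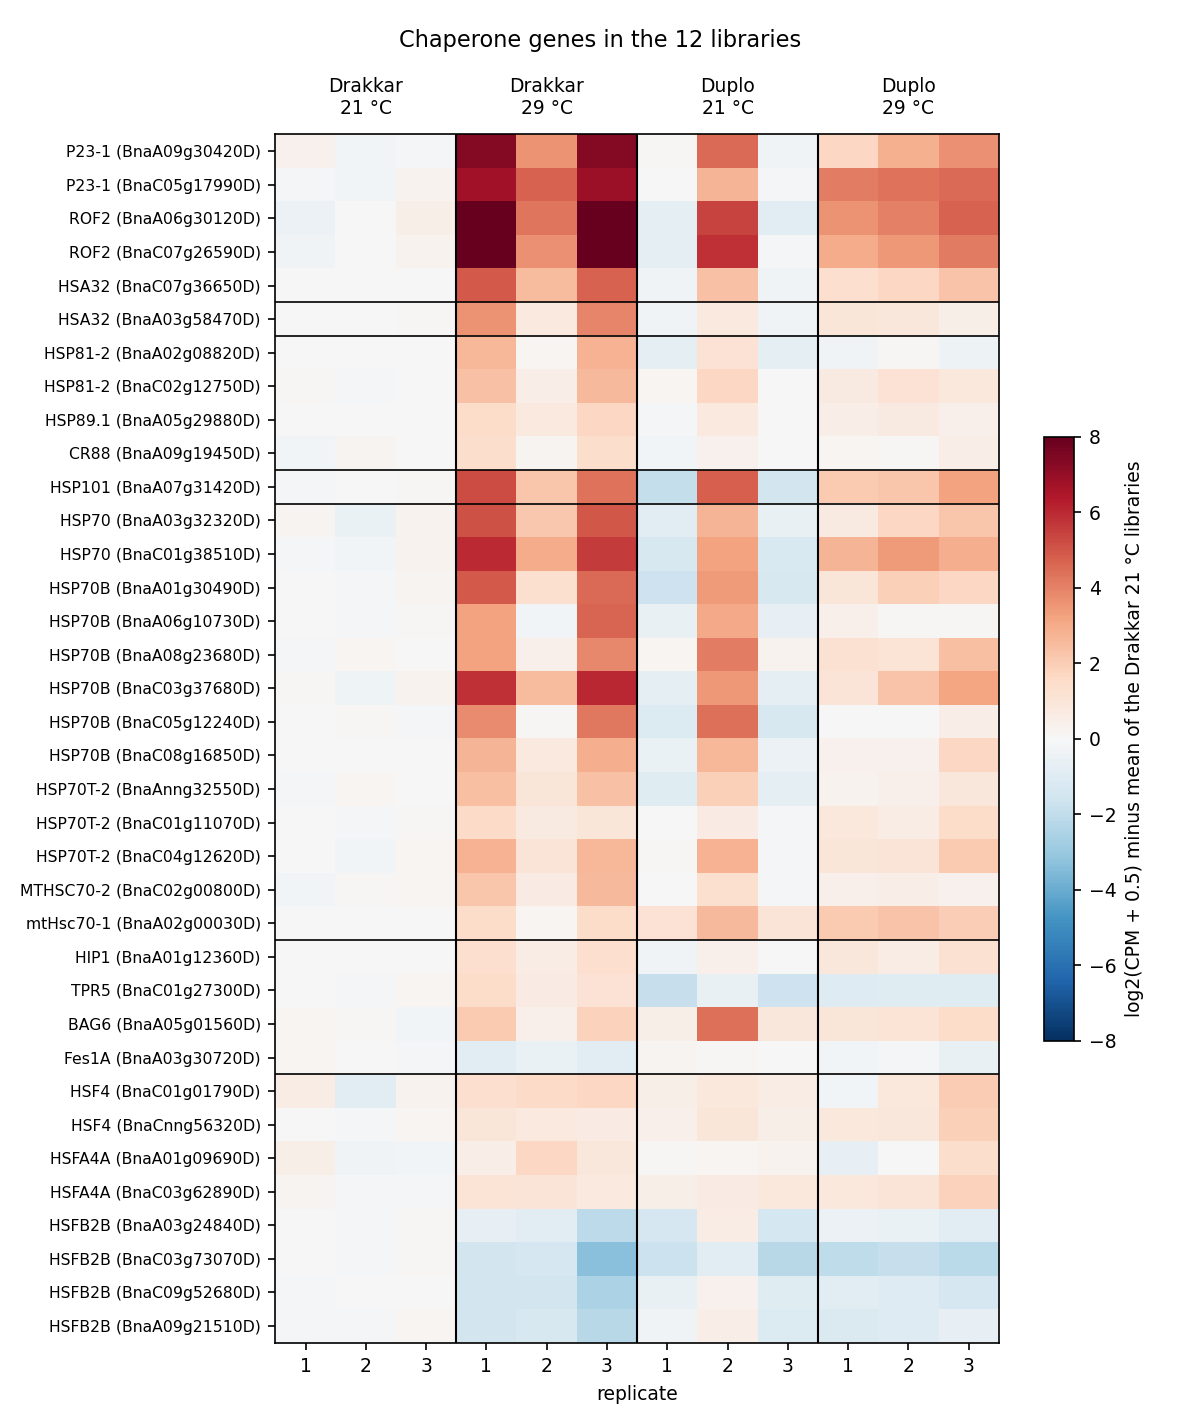
Log2(CPM + 0.5) of the 5 genes (top block) and the 31 other chaperone genes in each of the 12 libraries (columns, replicates 1 to 3 of each group), minus the mean of the 3 Drakkar libraries at 21 °C. Red marks higher and blue lower values, and colours stop at 8. Duplo 21 °C replicate 2 is the highest library of its group in 28 of the 31 other genes, and 2 of the 4 *HSFB2B* copies at the bottom were called lower at 29 °C in Drakkar.

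The 5 genes varied together over the 12 libraries, with Pearson's r of log2(CPM + 0.5) between 0.92 and 0.99 for their pairs, and between 0.945 and 0.996 over the 10 libraries without those that stood apart. The libraries share the 4 groups and the libraries that stood apart, so these values are a description. The lowest r, 0.918, was that between the A09 and C05 copies of *P23-1*, which is lower than that between *P23-1* A09 and *HSA32* C07 (0.991). The genes most like the 5, by their mean r with them, were BnaC05g07850D (0.977, without a name in the tables used), the copies of *HSP23.6-MITO* on A01 (BnaA01g14560D, 0.975) and C01 (BnaC01g17140D, 0.974), *GolS1* (BnaA05g00720D, 0.975) and *ZPR1* (BnaA08g07440D, 0.973). *HSP23.6-MITO* encodes a mitochondrial small heat-shock protein, and *GolS1* encodes galactinol synthase, which starts the synthesis of raffinose-family sugars. The A01 copy of *HSP23.6-MITO* had 0.652, 44.4 and 0.408 CPM in Duplo at 21 °C and 19.1, 25.8 and 27.6 CPM at 29 °C. It was also low in Drakkar 29 °C replicate 2, with 33.9 CPM beside 249 and 286 CPM. With Spearman's rho in place of r, 1 of these 5 remained among the top 5, with a pseudocount of 2 in place of 0.5, 3 did, and over the 10 libraries without those that stood apart, 2 did.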

How the data were processed

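The authors filtered the reads, aligned them with HISAT2 to the rapeseed genome AST_PRJEB5043_v1 and deposited unnormalized read counts per gene, in 1 table per variety. The library kit kept the strand. The counting program, its strand setting and its treatment of multi-mapping reads are not given in the sources used here. The authors also deposited their own DESeq2 comparison of the temperatures (fold changes and p-values), which was not used. A line without a gene name (0 to 2 reads per library, at most 6.55e-06%) was left out.

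Low counts were removed with filterByExpr. TMM scaling and edgeR's quasi-likelihood test with Benjamini-Hochberg adjustment over all genes followed, per variety for temperature and over 12 libraries otherwise. The SE was obtained from the log2 fold change and the F statistic (absolute value over the root of F). The test was checked on simulated counts with the same spread for every gene and no library that stood apart, so the check does not cover such libraries. The 5 genes, the lists and the tests were chosen with earlier results of these data known. The genes named are the 5, the A03 copy of *HSA32*, *HSP101*, both *HSP81-2* and *HSP70* (AT3G12580) copies, the listed genes called lower (named after their values were seen) and the 5 genes of highest mean correlation. A RefSeq table of another assembly matched 1 of the 5 genes and gave no coordinates. The alternatives were DESeq2, RLE factors, library totals, no filter, a replicate block, 1 fit of all libraries, a minimum of 30 reads, log2 ratios of the copies (0.5 added) and each library left out. Intervals and floors (3 reads) cover counting error only, since reads carry no molecular identifiers. Fits used edgeR 4.0.16 and DESeq2 1.42.0 in R 4.3.3, and tables and plots used scipy 1.17.1, pandas 2.3.3 and matplotlib 3.10.9 in Python 3.11.15.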

Additional observations from a re-analysis of the deposited data

How the results depend on the processing

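With each library left out in turn, the number of the 5 genes called was between 0 and 5 for temperature in Drakkar, 0 throughout for temperature in Duplo and for the interaction, between 0 and 1 for the varieties at 21 °C and between 0 and 5 at 29 °C. Without both libraries that stood apart, an alternative chosen after seeing the data, it was 5 for temperature in Duplo, 1 for the varieties at 21 °C and 5 at 29 °C. Of the 56278 genes tested there, 921, 6065 and 7123 were called in the same order. In these same fits, the log2 fold changes in Duplo were between -0.79 and 5.63 for *P23-1* A09, between -0.21 and 7.10 for *ROF2* A06 and between -1.26 and 5.09 for *ROF2* C07 with 1 library left out. Without both libraries, those of *P23-1* A09 and *ROF2* C07 turned to 5.59 and 5.06. The *HSA32* interaction was between -6.43 and 1.87 with 1 library left out and 1.42 without both. All *HSA32* values without Duplo 21 °C replicate 2, here and below, rest on no read in the remaining Duplo 21 °C libraries. For Duplo against Drakkar at 21 °C, the ranges were from -0.48 to 6.64 and -0.66 to 4.71 for *P23-1* A09 and C05, -2.15 to 5.14 and -0.77 to 5.56 for *ROF2* A06 and C07, and -4.76 to 3.54 for *HSA32*. Without both libraries the values were -0.48, -0.66, -2.15, -0.77 and -4.76. The cause was not tested.

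The A-copy share differed between the Drakkar temperatures by -0.492 percentage points for *P23-1*, on the 2 libraries with at least 10 reads at 21 °C. This difference lay between -5.92 and 9.09 points with 1 library left out. For *HSA32* at 29 °C, the range was -4.57 to 9.55 points. RLE factors, library totals, no filter and 1 fit of all libraries left the number of the 5 genes called unchanged in every comparison they could be run for. So did DESeq2 for temperature, but for the varieties and the interaction it gave p-values for only 2 of the 5. Library totals moved the Drakkar median over all genes to 0.126 (log2).

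With the replicate number as a block, 4 of the 5 genes were called higher in Drakkar (*ROF2* C07 at adjusted p = 0.0518), as were 426 of 52709 genes tested. In each other comparison 0 of the 5 were called. The number at 21 °C with an unadjusted p-value under 0.05 went from 4 to 0, and the Duplo fold changes of *P23-1* A09 and *ROF2* C07 turned to 2.19 and 2.89. The numbers were not taken to pair the samples. Same-numbered libraries of the 2 temperatures had deviations correlated between -0.07 and 0.13 in Drakkar and between -0.20 and 0.03 in Duplo. Those of the 2 varieties were correlated at 0.16, 0.06 and -0.28 at 21 °C and 0.23, 0.09 and 0.41 at 29 °C (replicates 1 to 3), so not every pair exceeded 0.1.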
